A study of Mus musculus with 10 samples.

Results

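Purb, Pura and Purg encode the Pur proteins, a family of purine-rich element binding proteins, and are described here in gastrocnemius muscle (GAS) of diet-induced obese (DIO) mice with and without an antisense oligonucleotide (ASO) against miR-22. These 3 genes of the 21098 in the count table were chosen by name, with their change in this comparison already known, so their differences between the groups are given as descriptions with no test. The muscle came from male wild-type C57BL/6J mice, fed a high-fat diet from 9 weeks of age. By the paper's methods they were randomized after 9 weeks, once all weighed over 40 g. In the weights the paper lists, some control mice were below 40 g at the first weighing, while every ASO mouse was above it. The diet continued during 14 weeks of treatment, until an age given as 30 weeks. The ASO group (labelled LNA or RES-010) received 10 mg/kg of the oligonucleotide under the skin every week, and the control group (CTRL) received saline. Each group had 5 libraries of polyadenylated RNA, whose replicates are taken as separate mice. Bulk muscle was sequenced, so fewer cells of a type and less RNA per cell cannot be told apart, and mature miR-22 was not measured in these libraries.

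Pur proteins bind purine-rich single-stranded DNA and RNA, alone or as dimers of Pura and Purb. In muscle and heart, Pura and Purb are known as repressors of the smooth muscle actin gene Acta2 and of the myosin heavy chain genes Myh6 and Myh7, the latter being the myosin of slow fibers. Pura is also known from neurons, where it travels in RNA granules with messenger RNAs, while Purg is the least studied member. Purb has been reported as a target of miR-22 in heart muscle. An ASO against a microRNA blocks its pairing with target sites, which lie mostly in the 3′UTR and match the seed, bases 2 to 8 of the microRNA.

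The sequences that join miR-22 to this family are the mature mouse miR-22-3p and its matches in the Purb 3′UTR. The microRNA sequence is from RefSeq and the site sequences are from GRCm39, with the seed and its matches of 7 bases in capitals and all sequences written 5′ to 3′ on the strand of the RNA.
mmu-miR-22-3p: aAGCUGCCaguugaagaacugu
Purb site near the stop codon, 11:6424891-6424911, minus strand: agcaGGCAGCTtcccgtaccg
Purb second site, 11:6422732-6422758, minus strand: tgtactacaaGGCAGCTgttttcaata
No other mouse microRNA in the RefSeq table shares this seed (0 found). The first match lies at bases 5 to 11 after the Purb stop codon and the second at bases 2164 to 2170.

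The Purb 3′UTR, with 7313 bases in the GENCODE M39 annotation, is longer than that of 98.1% of the 7813 genes tested. A further match of only 6 bases lies at bases 2336 to 2341. The Pura 3′UTR has 4408 bases and no match of 7 bases to the miR-22 seed, with 1 match of 6 bases at bases 240 to 245. The longest Purg 3′UTR has 4694 bases and no match of 7 bases, with 1 match of 6 bases followed by A at bases 4308 to 4313, and belongs to another isoform than the one counted. The letters GGCAGCT, searched on the RNA strand only, occur at least once in the longest 3′UTR of 21.7% of the tested genes and at least 2 times in 3.97%. Among the 636 tested genes with a 3′UTR of 5000 to 10000 bases, 11.5% hold 2 or more matches. A match is a description of the sequence, not evidence of pairing.

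**Figure D1:**
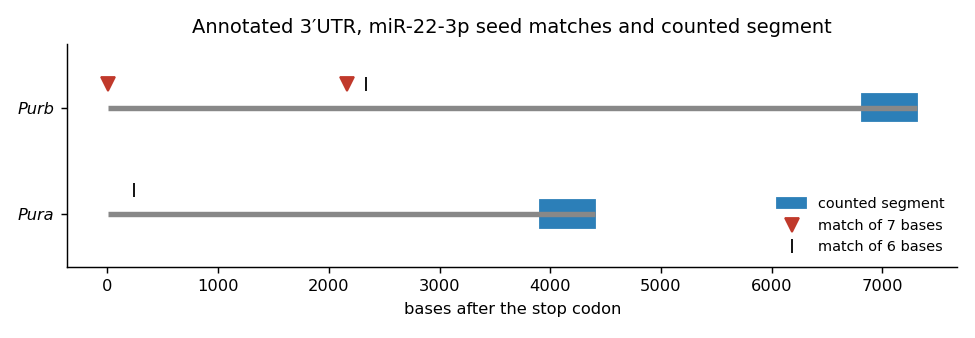
Annotated 3′UTRs of Purb and Pura in bases after the stop codon, with matches to the miR-22-3p seed (triangles, 7 bases; ticks, 6 bases) and the counted segment in blue. Both Purb matches of 7 bases lie upstream of the counted segment, by 5143 bases or more from the 3′ end, and Pura has none of 7 bases.

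The authors counted read pairs only over the last 500 bp of annotated 3′UTRs. Each of the Pur genes has a single counted segment of 500 bp, which overlaps no other segment and no other annotated gene. Segment length thus does not differ between them. The Purg segment belongs to another isoform than that with its longest 3′UTR, so Purg levels cover the counted isoform only. The Purb segment (ENSMUSG00000094483) lies at chromosome 11, 6417599 to 6418098, on the minus strand at the very end of the 3′UTR. The Pura segment (ENSMUSG00000043991) lies at chromosome 18, 36425089 to 36425588, and the Purg segment (ENSMUSG00000049184) at chromosome 8, 33906996 to 33907495, both on the plus strand. None of the seed matches lies in a counted segment. Elsewhere in their spans the Pur genes share ground with other genes, namely Purb with the lncRNA Gm11973 and, on its own strand, the microRNA gene Gm22123, Pura with the lncRNA Gm58393, and Purg with the lncRNA Gm64283 and with Wrn, the Werner helicase gene on the opposite strand.

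The libraries differed in 2 properties that ran with the group. Library totals were 1606909 to 2116720 counts in CTRL and 2239186 to 2632560 with the ASO, so every treated library had the higher total. These are counts on the segments, not reads sequenced. A distal-over-proximal index was taken for each library by dividing the counts of a gene on its last 3′UTR segment by those further upstream, on the log2 scale, with the median taken over 1016 genes. It was between −0.56 and 0.53 in CTRL and between 1.29 and 1.90 with the ASO. Group and index cannot be told apart in these 10 libraries. The skeletal muscle genes Ckm and Acta1 were at 19103 and 39477 CPM on average in CTRL, while Mylpf, Tnnt3 and Mb, whose segments overlap other segments, were listed at 0.

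Purb was the most abundant family member and the one with a clear shift. In CTRL it was counted 177, 154, 149, 96 and 91 times, or 82.8, 71.3, 73.1, 56.2 and 50.7 CPM, which is the count relative to a library size scaled by TMM. With the ASO it was counted 445, 485, 439, 467 and 542 times, or 213, 204, 184, 193 and 254 CPM. Every ASO library stood above every CTRL library, with a wide gap between the highest control and the lowest treated one. The mean was 66.8 ± 13.1 CPM in CTRL and 210 ± 26.8 CPM under the ASO (SD, 5 libraries per group). The log2 fold change was 1.65 (SE 0.16), or 3.13-fold. The Purb change was the 14th from the top of the 7813 genes tested, a description only, as Purb was chosen with its change known. By level, Purb stood above 84.1% of those genes over the 10 libraries.

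For Pura, which forms dimers with Purb, the groups overlapped. It was counted 34, 39, 20, 21 and 34 times in CTRL and 14, 22, 50, 19 and 9 times with the ASO. This corresponds to 15.9, 18.0, 9.81, 12.3 and 19.0 CPM in CTRL and 6.71, 9.27, 21.0, 7.87 and 4.21 CPM with the ASO. Of the ASO libraries, 4 lay below every CTRL library and replicate 3 lay above all of them, a wide spread for 5 libraries. The means were 15.0 ± 3.87 and 9.81 ± 6.52 CPM (SD, n = 5 each), with a log2 fold change of −0.60 (SE 0.38). That value rests in part on ASO replicate 3, without which it was −1.05. With at most 50 counts per library, counting error alone is a sizeable part of the spread.

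Purg, as measured on its counted isoform, was the least abundant. It was counted 11, 7, 12, 9 and 8 times in CTRL and 21, 17, 23, 14 and 11 times with the ASO. On the CPM scale these were 5.15, 3.24, 5.88, 5.27 and 4.46 in CTRL and 10.1, 7.17, 9.65, 5.80 and 5.15 with the ASO. The lower ASO libraries, replicates 4 and 5, lay within the CTRL range and the other 3 above it. The means were 4.80 ± 1.01 and 7.57 ± 2.22 CPM (SD, n = 5 each), with a log2 fold change of 0.65 (SE 0.28). Over all genes tested, the groups did not overlap for 21.4%, with 7.97% higher and 13.4% lower with the ASO. Purb was the 1 family member of 3 without overlap, and as the members were chosen with this contrast known, nothing is read from that count.

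**Figure D2:**
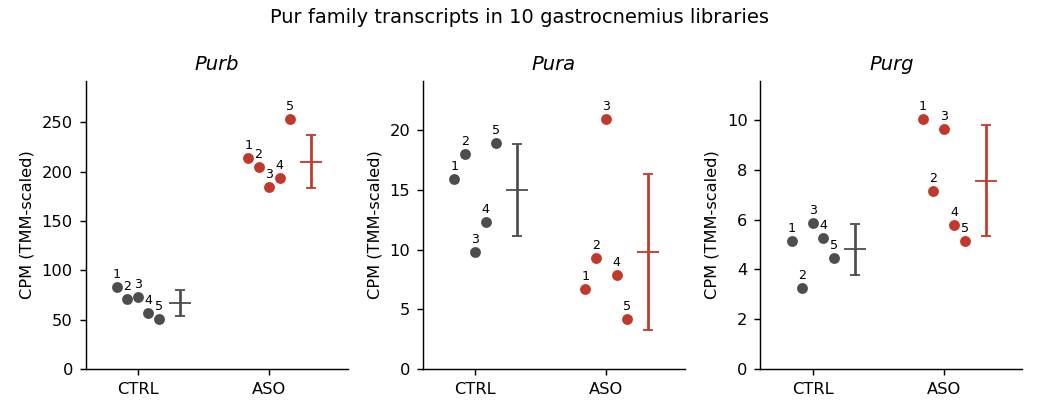
Level of Purb, Pura and Purg in each of the 10 libraries (y axis, TMM-scaled CPM; numbers are replicates; bars give mean and SD). Purb lies between 50.7 and 82.8 CPM in CTRL and between 184 and 254 CPM with the ASO, while the groups overlap for Pura and for Purg.

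The balance within the family moved with Purb. On the counted segments, the CTRL levels followed the order Purb, Pura, Purg, with no overlap between neighbours over the 5 libraries. With the ASO, Purb remained at the top, while Pura and Purg overlapped. The count of Purb over that of Pura ranged from 2.68 to 7.45 in CTRL, with a median of 4.57, and from 8.78 to 60.2 in the ASO group, with a median of 24.6. Every ASO library had a higher Purb to Pura ratio than every CTRL library, a ratio taken within a library and so free of the scaling between libraries. Purb made up 68.4% to 82.3% of the summed counts of the family in CTRL, with a median of 77.0%, and 85.7% to 96.4% in the ASO group, with a median of 92.7%. The summed level of the family was 73.8 to 104 CPM in CTRL and 207 to 263 CPM with the ASO.

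Since the index separated the groups, the levels were set beside it within each group. In CTRL, the Purb level from high to low followed replicates 1, 3, 2, 4 and 5 and the index replicates 2, 1, 3, 4 and 5, so the libraries with the lowest index also had the least Purb. With the ASO, the Purb order was 5, 1, 2, 4 and 3 and the index order 3, 5, 4, 2 and 1, so the library with the highest index had the least Purb. For Pura the library with the highest level was replicate 5 in CTRL, which had the lowest index, and replicate 3 with the ASO, which had the highest. With the index as a covariate, a fit added after seeing the data, the log2 fold change was 1.07 (SE 0.37) for Purb, −1.40 (SE 0.94) for Pura and 0.99 (SE 0.75) for Purg. The part of the index in these differences was not tested.

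**Figure D3:**
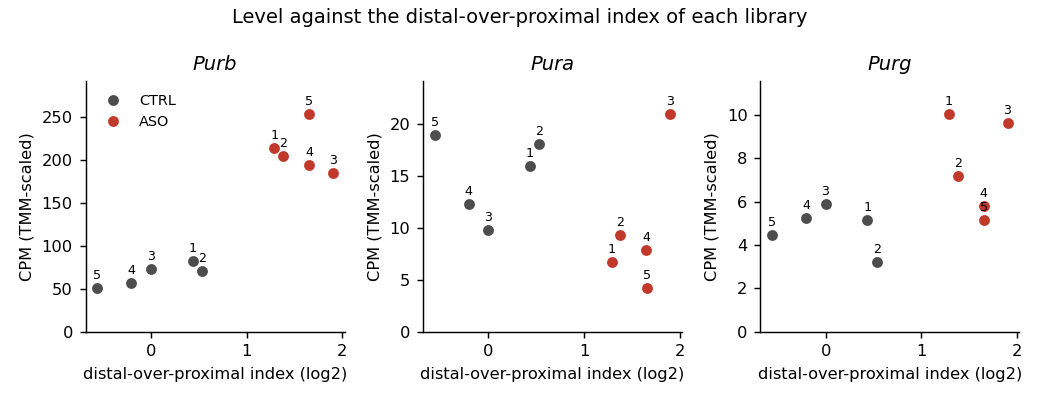
Level of each Pur gene (y axis, TMM-scaled CPM) against the distal-over-proximal index of the library (x axis, log2; numbers are replicates). The index runs from −0.56 to 0.53 in CTRL and from 1.29 to 1.90 with the ASO, and within the ASO group the library with the highest index has the lowest Purb level.

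Because the Pur genes are each counted on a single segment of 500 bp, no sum over several segments enters their values, and other genes counted in this way are the nearest comparison. There were 1813 such genes among those tested, and their median log2 fold change was 0.19, against −0.03 over all tested genes. Of the 1813 genes, 16.1% rose and 4.19% fell past an adjusted p of 0.05 in edgeR, against 11.8% and 17.4% of all tested genes. Purb was 1 of 3 among them with a change as high as its own. Among the 259 with a 3′UTR of at least 4000 bases, the median was 0.24 and Purb was the 1 gene at its level of change, while 19 lay at or below the value of Pura. These places use the change that was known when the members were chosen, so nothing is read from them.

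**Figure D4:**
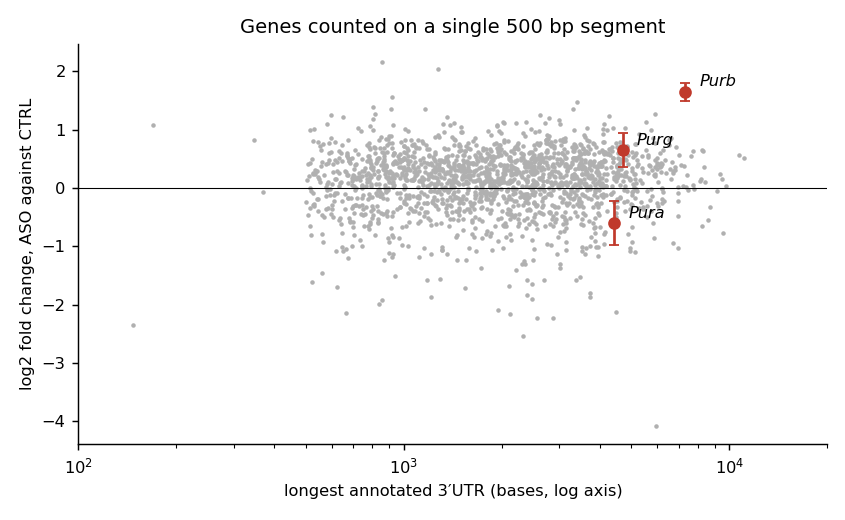
Log2 fold change of ASO against CTRL (y axis) and longest annotated 3′UTR (x axis, log scale) for the 1813 tested genes counted on a single segment of 500 bp (grey), with the Pur genes in red and bars for the SE. Purb at 1.65 stands above the other genes with long 3′UTRs, and Purg at 0.65 and Pura at −0.60 lie within their cloud. The Pur genes were chosen with these changes known, so nothing is read from their places.

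Genes that hold the same letters as Purb were set beside it. The 6091 tested genes with no match of 7 bases to the miR-22 seed had a median log2 fold change of −0.04, the 1381 with 1 match a median of −0.01 and the 309 with 2 or more a median of 0.05. Their median 3′UTR lengths also differed, at 1790, 2756 and 3788 bases, and the part of length in these values was not tested. Of the 309 genes with 2 or more matches, 49 (15.9%) rose and 36 (11.7%) fell past the threshold in edgeR. Purb was the 1 gene among them with a change of its size. As it was chosen with that change known, nothing is read from this place. The shares that rose and fell were 11.9% and 20% for genes with 1 match, 11.5% and 17.1% for those with none, and 11.7% and 17.4% for all tested genes with a 3′UTR. Of the other genes reported as targets of miR-22, 7 were tested, and in edgeR 0 rose and 2 fell. None was higher at an unadjusted p of 0.05 or in DESeq2 or limma-voom (0 in each). Those that fell were Ppara, a nuclear receptor of fatty acid oxidation (log2 fold change −3.41, edgeR adjusted p = 0.0018), and Esr1, the estrogen receptor (−0.44, edgeR adjusted p = 0.027). Ppara had low counts, with 2 to 11 per ASO library and 10 to 77 per CTRL library. It could not be tested on its most distal segment, and with the index as covariate its value was −1.28. The call of Esr1 was lost in 7 of the 10 fits that left out 1 library, with values between −0.45 and −0.33. The share of Esr1 counts on the most distal segment was 59.3% in CTRL and 94.4% with the ASO, and on that segment the log2 fold change was −0.028. Hdac4, Tet2, Ddit4, Max and Cdkn1a did not pass, and Sirt1 was below the filter on counts. The median of the 7 was −0.17.

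Of the genes reported under Pur control, Acta2, smooth muscle actin, rose while Myh7 and Mbp did not pass the test. Acta2 was at 63.6, 29.2, 45.6, 72.0 and 41.8 CPM in CTRL and at 54.1, 57.8, 105, 161 and 111 CPM with the ASO. The groups overlapped, with 3 ASO libraries above every control. The log2 fold change was 0.96 (SE 0.32; edgeR adjusted p = 0.039), and the call was lost in 6 of 10 fits that left out 1 library, with values between 0.72 and 0.96. These were the fits without ASO replicates 3, 4 or 5 and without CTRL replicates 2, 3 or 5, and limma-voom did not call Acta2 either. Of the 8 smooth muscle contractile genes listed, 4 were tested, with a median log2 fold change of 0.49. Acta2 was the 1 of them past the threshold, where 11.8% of all tested genes rose.

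Myh7, the slow myosin that names this family as repressors in muscle, differed widely between mice of both groups. It was at 63.2, 6.94, 6.37, 22.3 and 0 CPM in CTRL and at 0, 0, 42.0, 266 and 9.83 CPM with the ASO. The controls ranged from 0 to 63.2 CPM and most of the Myh7 counts of the ASO group came from replicate 4. The log2 fold change was 1.68 (SE 1.29; edgeR adjusted p = 0.35) and −0.61 without that library. Myh6, the heart myosin next to Myh7, was listed at 0 in all 10 libraries. It has overlapping segments, so this 0 is not read as absence, and Myh7 has overlapping segments too. Mbp, the myelin gene bound by Pura, was at 15.0, 10.2, 33.3, 20.5 and 17.3 CPM in CTRL and at 9.58, 21.9, 10.5, 70.8 and 10.8 CPM with the ASO (log2 fold change 0.37, edgeR adjusted p = 0.65). Without ASO replicate 4 the value of Mbp was −0.51. Mbp also has overlapping segments, and 0% of its counts lay on the most distal one. The summed level of the Schwann cell markers was 78.2 to 162 CPM in CTRL and 39.3 to 537 CPM with the ASO, and its part in the Mbp values was not tested.

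Slow fiber genes were highly variable between mice, and 4 of the 7 tested fast fiber genes rose. Of 13 slow fiber genes of the sarcomere and of calcium handling, 8 were tested, 1 rose and 0 fell in edgeR (median log2 fold change 1.38). No slow fiber gene passed in DESeq2 or limma-voom (0 in each). The 1 that rose in edgeR was Myl6b, a slow myosin light chain (1.72, SE 0.56, edgeR adjusted p = 0.037), whose value was 0.71 without ASO replicate 4 and whose call was also lost without CTRL replicates 1, 2, 3 or 5 in turn. Of the 13 fast fiber genes, 7 were tested, 4 rose and 0 fell (median 0.79), where 11.8% of all tested genes rose, and Casq1, Pvalb and Myl1 did not pass. Those that rose were Actn3, an actinin of fast fibers (1.79, edgeR adjusted p = 0.0015), the myosin-binding protein Mybpc2 (1.54), the calcium pump Atp2a1 (1.08) and the troponin Tnnc2 (0.79). The Tnnc2 call was lost without ASO replicates 1 or 5 or CTRL replicates 4 or 5, with values of 0.61 to 0.80. Ckm, a general muscle gene, also rose (0.93, edgeR adjusted p = 0.011), although on its most distal segment, with 2.44% of its counts, the value was −0.068. The summed level of the skeletal muscle markers was 38176 to 74293 CPM in CTRL and 79567 to 116034 CPM with the ASO. Nearly all of that sum came from Ckm and Acta1, and Acta1 did not pass (0.57, edgeR adjusted p = 0.058). Whether the difference in Ckm and Acta1 plays a part in the fiber genes was not tested.

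Of the 9 factors listed as acting with Pur proteins at promoters, 7 were tested, with a median log2 fold change of −0.08. In edgeR 0 of these 7 rose and 3 fell, where 11.8% of all tested genes rose and 17.4% fell. At an unadjusted p of 0.05, 1 was higher, and in DESeq2 and limma-voom 0 were. Tead1, which binds the MCAT element beside the Pur site of the Acta2 promoter, was at 62.2, 39.3, 87.8, 214 and 216 CPM in CTRL and at 3.83, 6.32, 11.3, 11.2 and 7.96 CPM with the ASO. All ASO libraries lay below all controls (log2 fold change −3.90, SE 0.51, edgeR adjusted p = 3.2e-04). However, 0% of the Tead1 counts fell on its most distal segment, so the change was seen on upstream segments alone. The signal transducers Smad2 (−0.74, edgeR adjusted p = 0.016) and Smad4 (−0.49, edgeR adjusted p = 0.015) fell as well, and Srf, Sp1, Sp3 and Smad3 did not pass. The groups overlapped for Smad4. Its share of counts on the most distal segment was 62.0% in CTRL and 83.1% with the ASO. For Smad2 that share was 24.1% and 18.7%. On that segment neither passed the threshold, with values of −0.34 for Smad4 and −1.40 for Smad2. Ybx1 and Ybx3, known partners of Pur proteins on single-stranded DNA, have overlapping segments with at most 1 count in a library and could not be followed.

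Among 23 transcription regulators of slow myosin or fiber type, 18 were tested (median log2 fold change −0.09). Of these 18, 2 rose and 4 fell, where 11.8% of all tested genes rose and 17.4% fell. Nfix, a switch between fiber programs of fetal and later muscle, rose by 0.93 on the log2 scale (edgeR adjusted p = 0.0015), and the deacetylase Hdac5 rose by 0.79 (edgeR adjusted p = 0.0027). Mef2c, a myogenic factor, fell by 3.04 on the log2 scale (edgeR adjusted p = 1.1e-04), and Eya1, a cofactor of homeobox factors in fast muscle, fell by 1.36 (edgeR adjusted p = 8.4e-04). The remaining ones that fell were Tead1, given above, and Six4 (−0.60, edgeR adjusted p = 0.034), whose call was lost in 5 of 10 fits that left out 1 library and whose value on the most distal segment was −0.32. As for Tead1, 0% of the counts of Mef2c and Eya1 lay on the most distal segment. For Hdac5, which rose, that share was 0.18%, and it could not be tested on that segment. Sox6, a repressor of slow genes, did not pass the threshold (0.28, SE 0.21).

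Of 15 proteins found with Pur proteins in RNA granules, 9 were tested, with a median log2 fold change of −0.34. In edgeR 0 rose and 4 fell, where 11.8% of all tested genes rose and 17.4% fell. At an unadjusted p of 0.05 and in DESeq2 and limma-voom, 0 were higher as well. Fxr1, an RNA-binding protein of muscle, was at 310, 410, 311, 464 and 527 CPM in CTRL and at 191, 239, 288, 161 and 148 CPM with the ASO. The groups did not overlap (log2 fold change −0.98, SE 0.22, edgeR adjusted p = 0.0057), but the share of Fxr1 counts on the most distal segment was 26.4% in CTRL and 58.1% with the ASO, and on that segment the log2 fold change was −0.10. Ddx3x, an RNA helicase counted on a single segment, was at 344, 339, 261, 281 and 222 CPM in CTRL and at 163, 204, 199, 191 and 130 CPM with the ASO (−0.70, SE 0.17, edgeR adjusted p = 0.0086). For Ddx3x too, every ASO library lay below every control. Stau1, a double-stranded RNA-binding protein (−0.49, edgeR adjusted p = 0.021), and Syncrip, a ribonucleoprotein (−0.34, edgeR adjusted p = 0.036), fell too, with the call lost in 2 and 8 of the 10 fits without 1 library. For Stau1 the share on the most distal segment was 19.6% in CTRL and 37.3% with the ASO, and the log2 fold change there was 0.15.

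**Figure D5:**
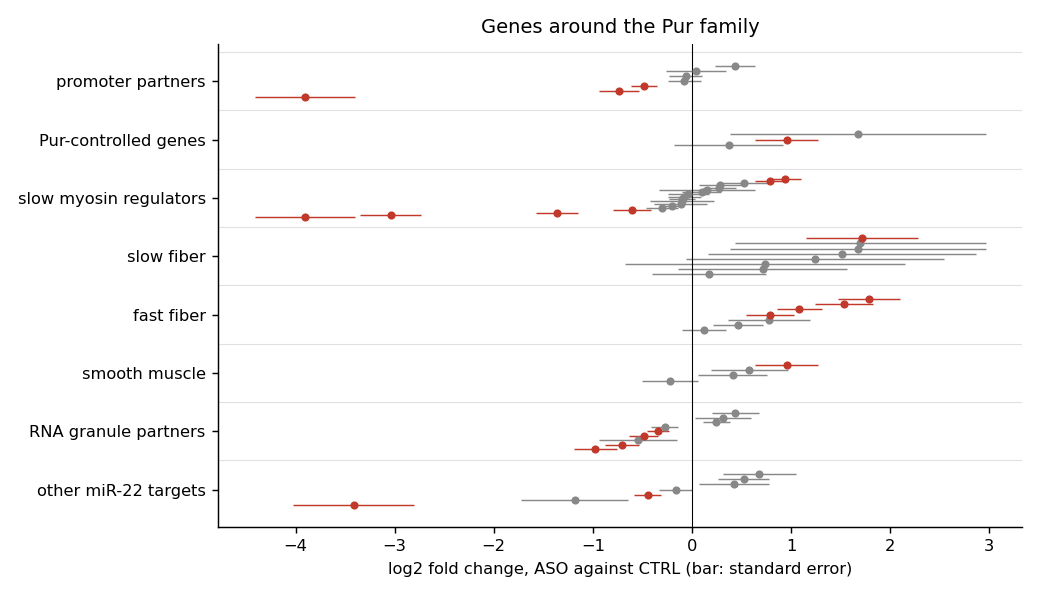
Log2 fold change of ASO against CTRL (x axis; bars give the SE) for the tested genes of each list around the Pur family (y axis), with those past an adjusted p of 0.05 in edgeR in red. Fast fiber genes lie to the right. Of the 9 tested RNA granule partners, 4 lie past the threshold to the left, where 17.4% of all tested genes fell.

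Over the 89 genes of these lists together, 58 were tested, of which 8 (13.8%) rose and 12 (20.7%) fell, against 11.8% and 17.4% of all genes tested. The shares are thus near those of the background. When each gene was counted on its most distal segment alone, Purb was at 1.37 and 6 of the 25 named list and marker genes passed in edgeR. These were Nfix, Actn3, Mybpc2, Atp2a1, Ddx3x and Mrc1. Tead1, Mef2c, Eya1, Hdac5, Syncrip, Ppara, Mbp and Myh6 could not be tested there. Of all 5087 genes tested on that segment, 566 passed. Most named genes had been picked for passing over all segments in these same libraries, so nothing is read from this count. Mrc1, a macrophage receptor, was the 1 of 3 tested macrophage markers to pass in all segments (−1.51, edgeR adjusted p = 0.036). Its call was lost in limma-voom and in 7 of the 10 fits that left out 1 library, namely those without ASO replicates 1, 2, 3 or 5 or CTRL replicates 3, 4 or 5, and the value was −0.92 without CTRL replicate 3. The summed level of the macrophage markers was 55.1 to 340 CPM in CTRL and 17.8 to 116 CPM with the ASO. In edgeR, none passed of the 4 tested Schwann cell, 3 endothelial, 5 adipocyte, 4 red blood cell and 2 fibroblast markers, and at an unadjusted p of 0.05 there was 1 adipocyte and 1 fibroblast marker, both lower. Summed endothelial markers were at 122 to 207 CPM in CTRL and 116 to 255 CPM with the ASO, and summed adipocyte markers at 836 to 13163 and 709 to 3592 CPM. The part of other cell types in the Purb level was not tested.

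Among the genes whose level moved most like Purb from mouse to mouse within the groups were Dcps, an mRNA decapping scavenger, Ngdn, the chaperone cofactor Hspbp1 and the predicted gene Gm49395. Their Pearson correlations with Purb, over 10 libraries after removal of the group means and among 7738 genes, were 0.93, 0.92, 0.89 and 0.87. None of them passed the adjusted threshold between the groups in edgeR, DESeq2 or limma-voom, and of those named Gm49395 had an unadjusted p under 0.05 in edgeR. Pura was at −0.48, Purg at −0.19, Myh7 at 0.16, Acta2 at −0.06 and Mbp at −0.21 by the same measure. All genes share the count total and the index of a library, and with 10 libraries such values are a description only.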

How the data were processed

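The authors trimmed reads with fastp, aligned them with STAR to GRCm39 and counted read pairs with featureCounts. Features came from Gencode M25 and covered only the final 500 bp of each 3′UTR. The strand setting is not given in the sources used here. The deposited table holds unnormalized counts for 52423 segments, and 4 of its per-sample columns, which match no sample used here, were left out. The deposited segment lengths and other position columns were used only to place segments. Of the segments, 52361 were found in GENCODE M39, which holds their coordinates on GRCm39, and the 62 others carry 0.0197% of the counts. No pair of libraries was identical (0 pairs). A count of 3 was taken as the floor, for counting error only.

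Segments were summed per gene and fitted with edgeR 4.0.16 in R 4.3.3 (TMM, filter on low counts by group, quasi-likelihood test, Benjamini-Hochberg adjustment at 0.05). CPM were computed here from TMM-scaled library sizes. P-values weigh the group difference against the spread between these libraries, in which group and index cannot be told apart. In simulated counts of ASO against CTRL, 7935 genes were tested in edgeR. It recovered 34 of 89 genes changed by 1 on the log2 scale and 103 of 103 changed by 2, with 2 false calls. The simulation gave all genes the same dispersion and held no difference in the index, so these rates may not hold for the real libraries. Alternatives were DESeq2 1.42.0, limma-voom 3.58.1, other scalings and filters, a replicate block, the most distal segment alone and leaving out each library. The index used segments of at least 200 bp, 1000 bp apart, with 50 counts on each side and 0.5 added.

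The members and lists were chosen with earlier results of these data known. Named are the Pur genes, Myh7, Myh6, Acta2 and Mbp, up to 8 members of each other list past the threshold by smallest adjusted p, and the 5 genes most like Purb by correlation of log2(CPM + 1) among genes with a mean of at least 10 counts. Members that did not pass are named to account for their list, a choice made after their values were seen. Some genes that these rules cover are not reported here.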

Additional observations from a re-analysis of the deposited data

Results flagged for a closer look

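Of 66 groups of 5 libraries tested for a value far from the rest (Dixon's test, critical value 0.71), 3 had one, and chance gives about 1 in 20. All 3 were high in the same library, ASO replicate 4. Myh7 was at 266 CPM there against 0 to 42.0 CPM in the other ASO libraries, Mbp at 70.8 CPM against 9.58 to 21.9, and Myl6b at 191 CPM against 28.5 to 37.8. None of the Pur genes had such a value, and Purb in that library was at 193 CPM, within the range of the other ASO libraries.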

How the results depend on the processing

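The Purb log2 fold change was 1.37 to 1.73 over the other scalings, filters, tools and the distal segment, and 1.56 to 1.74 without each library in turn. Those of Pura and Purg were −0.91 to −0.52 and 0.36 to 0.74, leaving aside the stricter filter (10 counts in each library), which they did not pass. With library totals, 540 genes were higher and 1813 lower, with upper quartile scaling 1262 and 1206, and with RLE factors 1053 and 1299; library totals moved the median of all genes to −0.20. The number of list members that were lower was 7 with no filter and 7 with the replicate block, and of those higher 5 to 8 without each library, lowest without CTRL replicate 5. On the most distal segment alone Purb was at 1.37, and of 5087 genes tested 231 were higher and 335 lower. There, 4 list members were higher and 2 lower, 6 of the 25 named genes passed, and Stau1 (0.15) and Ckm (−0.068) changed sign. With the index as covariate, chosen after seeing the data, Purb was at 1.07, Pura at −1.40, Purg at 0.99, Myh7 at −4.55 and Mrc1 at 0.27; in edgeR 0 genes, 0 list members and 0 named genes passed (451 genes at an unadjusted p under 0.05). Myh7 was at −0.33 in limma-voom and at −0.61 to 2.86 without each library, and Mbp at −0.51 to 0.67, both lowest without ASO replicate 4. The cause of these changes was not tested.

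Same-numbered libraries did not deviate together (correlations −0.43, 0.06, 0.05, 0.06 and 0.16), so the numbers were not taken as pairs; with the replicate block Purb was at 1.66, and 662 genes were higher and 1172 lower. Low counts limit Pura and Purg.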
